A study of Homo sapiens with 4 samples.

Results

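Cells labelled Arp8 KO were compared with cells labelled Arp8 overexpression. The comparison takes 2 of the 4 samples in the series, which were taken by their titles. All samples are Nalm-6, an established human pre-B leukemia line, cultured without oxidative stress, and the question put here is which transcripts differ between cells said to lack Arp8 and cells said to carry it in excess. The labelled KO cells had the *ACTR8* locus, which encodes Arp8, disrupted by homologous recombination. For the other sample the depositors name a tetracycline-regulated Tet-Off system, in which a transgene is transcribed unless tetracycline or a relative of it is added. The series text ties this system to Arp8 KO cells, but the labels do not say whether the overexpressing cells carry the disruption, whether the drug was given, or whether either line is 1 clone. The paper cites an earlier report by its authors that conditional loss of Arp8 is lethal to cells. How the viability of the cells bears on the ratios was not tested. Wild-type and Arp5 KO cells, the latter with a disrupted *ACTR5* locus, were measured on the remaining arrays and are shown beside the results without entering any ratio of the comparison.

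INO80 is an ATP-dependent chromatin remodeler that slides and edits nucleosomes during transcription, replication and DNA repair. Arp8 sits with actin and another actin-related protein in a module that holds the DNA next to the nucleosome, whereas Arp5 belongs to the part of the complex that grips the nucleosome itself. Pre-B cells depend on signals from the pre-B-cell receptor and from cytokine receptors, and divide rapidly, which requires histone synthesis in S phase.

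Each genotype has 1 single-color Agilent array hybridized with Cy3-labelled cRNA, so no difference has a replicate check or a p-value, and the number of arrays limits the precision. Signals are the scanner software's processed signal in scanner units, from which the background had been subtracted. Of 43376 spots other than controls, 30394 were marked well above background on the labelled KO array and 30803 on the labelled overexpression array, and no spot was saturated. The 75th percentile of the signal, by which each array was scaled, was 1999 units on the labelled KO array and 2006 units on the labelled overexpression array. A log2 ratio is the scaled log2 signal on the labelled KO array minus that on the labelled overexpression array, so that a positive value means a higher level on the array labelled Arp8 KO. In these bulk samples, a change in the proportion of cells that express a gene and a change in RNA per cell cannot be told apart.

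*ACTR8* was examined first, as the gene that the labels concern. Probe A_24_P131697 measured 2149 units in wild-type and 2233 in Arp5 KO cells, 1857 on the labelled overexpression array and 1654 on the labelled KO array. The second probe, A_23_P80694, had 1092, 993, 679 and 785 units on the same arrays. The log2 ratios were -0.16 and 0.21, so that the probes differ in sign and neither is beyond 2-fold. On both probes both labelled Arp8 arrays were below wild-type cells, by less than 2-fold. The higher level that the overexpression label names was thus not seen, and *ACTR8* mRNA does not separate the arrays as their labels do. Where the probes lie relative to the disrupted part of the gene or to an introduced cDNA was not examined, and a probe outside that part checks nothing. The arrays are therefore called by their labels throughout. *ACTR8* does not separate correct labels from exchanged ones, and read by genotype an exchange would turn the sign of every ratio given here. By contrast, *ACTR5* on the Arp5 KO array was at 65.3 units, against 1909 in wild-type cells, 2088 on the labelled overexpression array and 1849 on the labelled KO array. For *HMOX1*, the paper reports by quantitative RT-PCR a moderately lower level in Arp8 KO than in wild-type cells without stress. On these arrays *HMOX1* was at 58.6 units on the labelled KO array, 99.6 in wild-type cells and 118 on the labelled overexpression array. How these values bear on the labels was not tested.

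A ratio was taken for 29261 probes, those marked well above background on the brighter of the compared arrays. Of these, 28203 were well above background on both. For the other 1058 the dimmer signal was raised, where it was lower, to the lowest signal well above background on its array, and the ratio is a minimum. At a threshold of 2-fold, 273 probes (0.933%) were higher and 271 (0.926%) were lower on the labelled KO array. Minimum ratios made up 43 of the probes in each direction. Most transcripts were close to equal, since 91.6% of probes lay within 1.5-fold. Differences beyond 4-fold were seen for 11 higher and 31 lower probes.

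Repeated spots of the same probe give the technical error of a log2 ratio, which holds no variation between cultures. Its SD was 0.301 over 18 probes whose dimmer signal was under 50 units. It was 0.074 over 36 probes from 50 to 500 units and 0.034 over 149 probes above that. Differences beyond 2-fold were concentrated among dim probes. Of the 5927 tested probes under 50 units, 145 were higher and 132 lower, whereas of the 15367 probes over 500 units 46 were higher and 47 lower. The largest differences named here are therefore taken from probes with at least 50 units on both arrays, except where stated.

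Taken by gene, with the brightest probe standing for each, 13504 genes were tested. On the labelled KO array 101 (0.748%) were higher and 145 (1.07%) were lower. The median log2 ratio over all genes was -0.00, and 49.7% of genes were above 0. The 5th and 95th percentiles were -0.52 and 0.51. These values are the background beside which each list of genes is read. Another probe well above background on both arrays was available for 50 of the genes beyond 2-fold. For 45 of these genes all other probes had the same sign, and for 26 all were also beyond 2-fold.

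**Figure D1:**
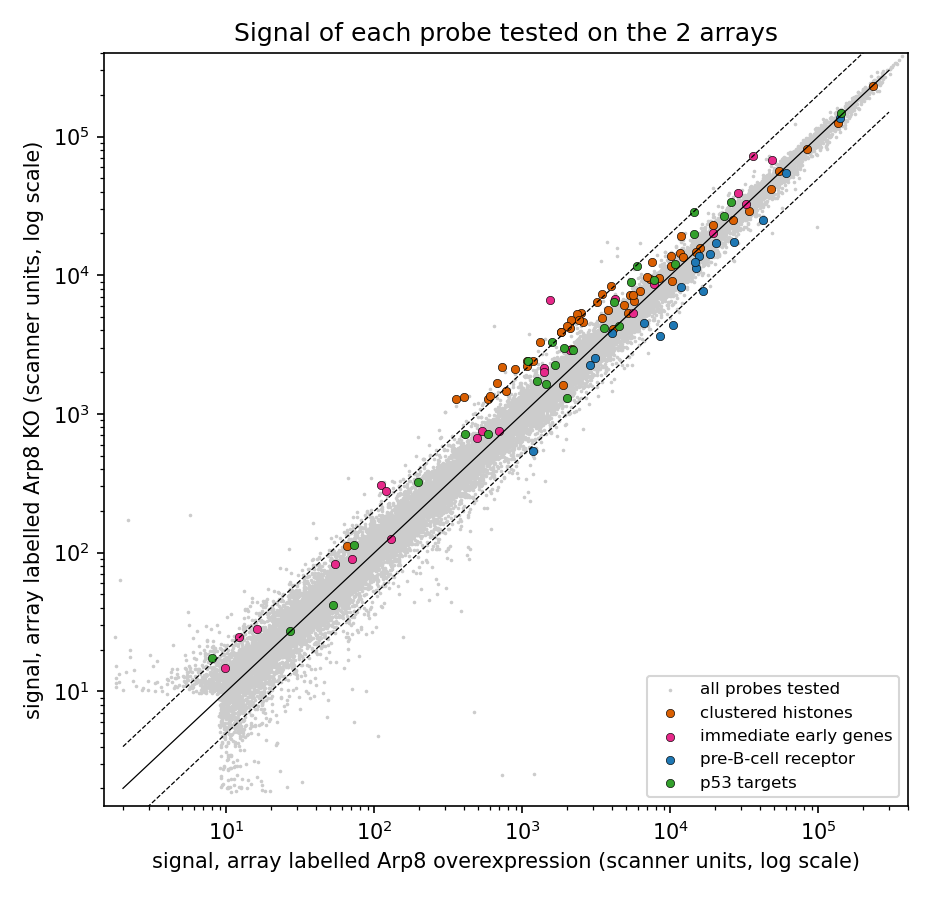
Signal of each tested probe on the array labelled Arp8 KO against that on the array labelled Arp8 overexpression, both in scanner units on log axes before dim signals were raised, with genes of 4 lists in color (1 probe per gene), a solid line at equal signal and dashed lines at 2-fold. Most probes lie between the dashed lines, histone and immediate early genes lie mainly above the solid line, and pre-B-cell receptor genes below it.

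Of the 12 genes with the largest positive ratios among those whose probes did not differ in sign, *H2AC16*, *H4C1* and *H2BC11* are histone genes, *JUN* and *FOS* are immediate early genes and *SOCS2* acts in cytokine feedback, all described with their lists. Among the 12 the largest ratio belonged to *RNU12*, the small nuclear RNA that recognizes the branch point in the minor spliceosome. It measured 313 units in wild-type and 511 in Arp5 KO cells, 66.4 on the labelled overexpression array and 348 on the labelled KO array, a log2 ratio of 2.40 or 5.26-fold. Under normexp background correction, which adds an offset to every signal, the ratio was 1.75, below the 2.08 of *JUN*. The labelled overexpression array is the one that stands apart, with the other arrays between 313 and 511 units. Probes for the small nucleolar RNAs *SNORA70* and *SNORD22* had log2 ratios of -0.32 and -0.15.

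*MED18* encodes a subunit of the head module of Mediator, which links transcription factors to RNA polymerase II. It measured 31.2 units in wild-type and 181 in Arp5 KO cells, 94.8 on the labelled overexpression array and 348 on the labelled KO array, with a log2 ratio of 1.88 (3.68-fold). Wild-type cells had the lowest value and the labelled KO array the highest. The copper-transporting ATPase gene *ATP7B* had a different order, with 349 units in wild-type cells and 356 on the labelled overexpression array, against 1492 in Arp5 KO cells and 1148 on the labelled KO array. Both arrays labelled KO were thus above both others, and the log2 ratio was 1.69 (3.24-fold). *GRIN2C*, for a subunit of the NMDA receptor, had 183, 248, 299 and 1033 units in wild-type, Arp5 KO, labelled overexpression and labelled KO cells, a log2 ratio of 1.79. Its other probe was dim on every array and gave 0.07, so the 2 probes do not show the same difference.

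*DDIT4L*, which encodes an inhibitor of mTOR signaling, was at 15209 units in wild-type and 23942 units in Arp5 KO cells. On the labelled overexpression and labelled KO arrays it was at 272 and 760 units. The log2 ratio of 1.49 between these arrays is small beside their distance from the other arrays, which both share. The uncharacterized locus *LOC728392* had 215 units in wild-type and 235 in Arp5 KO cells, 160 on the labelled overexpression array and 427 on the labelled KO array, with a log2 ratio of 1.42.

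**Figure D2:**
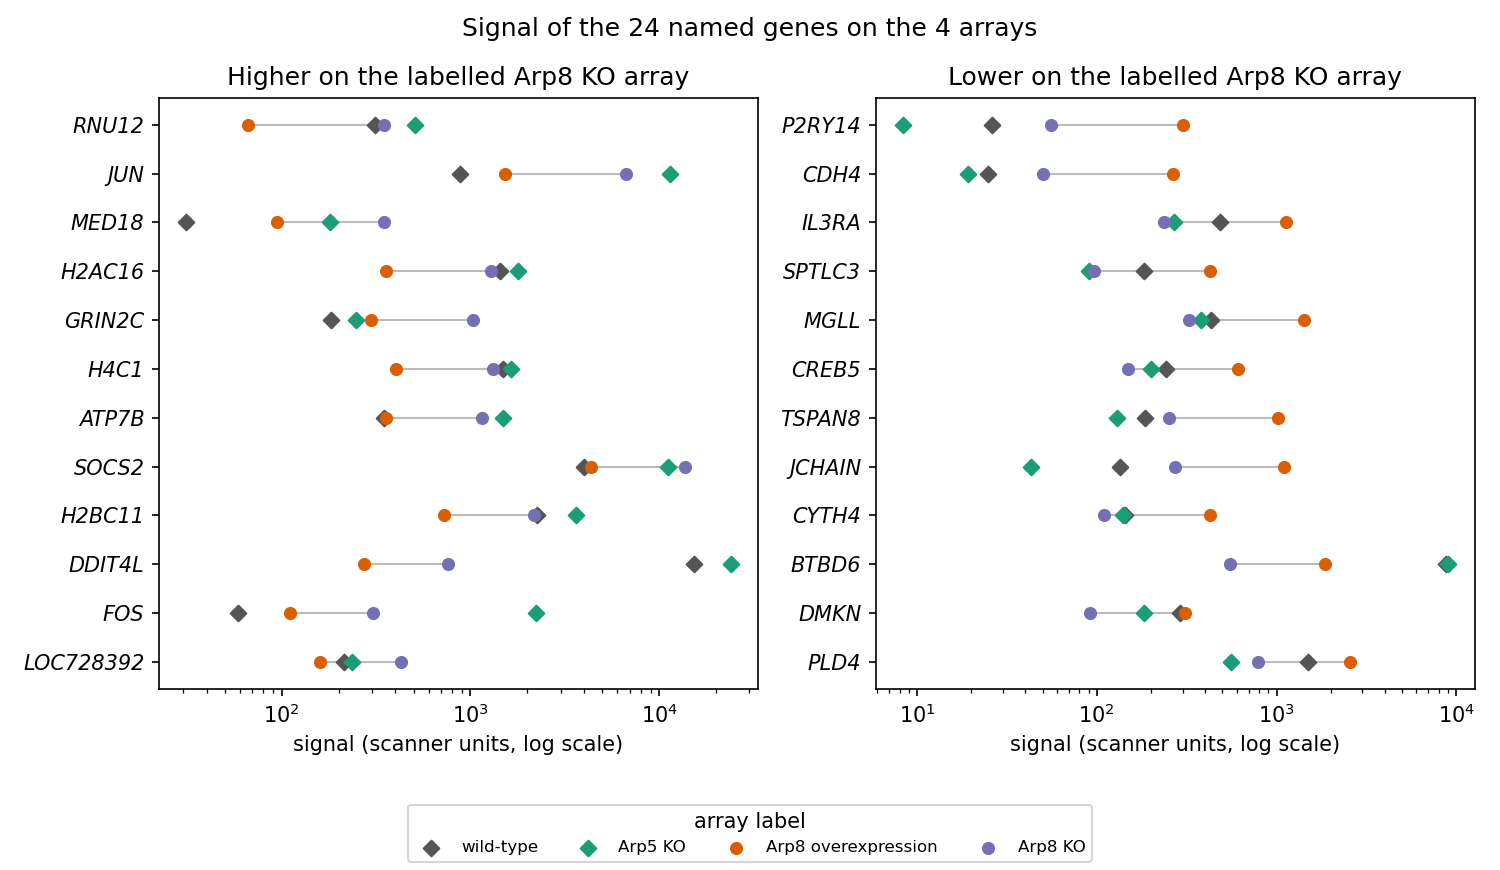
Signal in scanner units (log axis) of the 12 genes with the largest higher and the 12 with the largest lower ratio, with 1 point per array. Grey lines join the labelled Arp8 overexpression and labelled Arp8 KO arrays; wild-type and Arp5 KO arrays lie on no fixed side of them, and both lie far above them for *DDIT4L* and *BTBD6*.

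Replication-dependent histone genes lie in clusters and encode the bulk of the histones deposited in S phase. Of 63 clustered histone genes, 58 are on the array and 56 could be tested. Their median log2 ratio was 0.55, against -0.00 for all genes, and 20 were higher beyond 2-fold and 0 lower. In all 45 were above 0, and the range was from -0.23 to 1.86. Members of this family are close in sequence, so a probe may also bind the transcripts of its relatives, and the value of any single histone gene is uncertain.

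The largest histone ratio was that of *H2AC16*, an H2A gene. It had 1435 units in wild-type and 1784 in Arp5 KO cells, 355 on the labelled overexpression array and 1281 on the labelled KO array, a log2 ratio of 1.86 or 3.62-fold. *H4C1*, an H4 gene, followed with 1495, 1638, 405 and 1318 units in the same order and a log2 ratio of 1.71. For *H2BC11*, an H2B gene, the signals were 2243, 3607, 727 and 2180 units and the log2 ratio was 1.59. In each of these genes the labelled overexpression array was the lowest of the arrays, and the labelled KO array lay near wild-type cells. *H4C6*, another H4 gene, was arranged likewise, at 3162, 4724, 1325 and 3302 units. The same order was common in the family. Wild-type signal was nearer to the labelled KO array for 48 of the 56 genes, and it was above both labelled Arp8 arrays for 36 of them. The side of the wild-type signal was not counted over all genes, so these counts are not shown to be particular to histone genes.

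The histone classes, a division chosen after its values were seen, did not differ to the same degree. The 15 H2B genes had a median log2 ratio of 1.12, and 13 of them were higher beyond 2-fold. The 13 H2A genes had a median of 0.45, with 2 beyond 2-fold. Among 12 H4 genes the median was 0.35 with 3 beyond 2-fold, and among 12 H3 genes it was 0.10 with 2. The 4 linker histone genes of class H1 had a median of 0.37 and none beyond 2-fold. The classes also differed in brightness. On the labelled overexpression array H2B genes spanned 590 to 3987 units, whereas H2A genes reached 11657, H3 genes 53914 and H4 genes 234697. The ratios were not compared at matched brightness, so class and brightness cannot be told apart here. All 13 H2A genes and 14 of the 15 H2B genes were above 0. Bright H3 and H4 genes were close to 0, as *H4C3* shows, with 220822 units in wild-type and 232505 in Arp5 KO cells, 234697 on the labelled overexpression array and 230405 on the labelled KO array. *H4C3*, like *H2BC12* among the promoters, was chosen after its values were seen.

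Most replication-dependent histone mRNAs and the mature *RNU12* RNA lack a poly(A) tail, while the labelling kit primes at such tails. How the priming and the RNA preparation bear on these ratios was not tested.

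**Figure D3:**
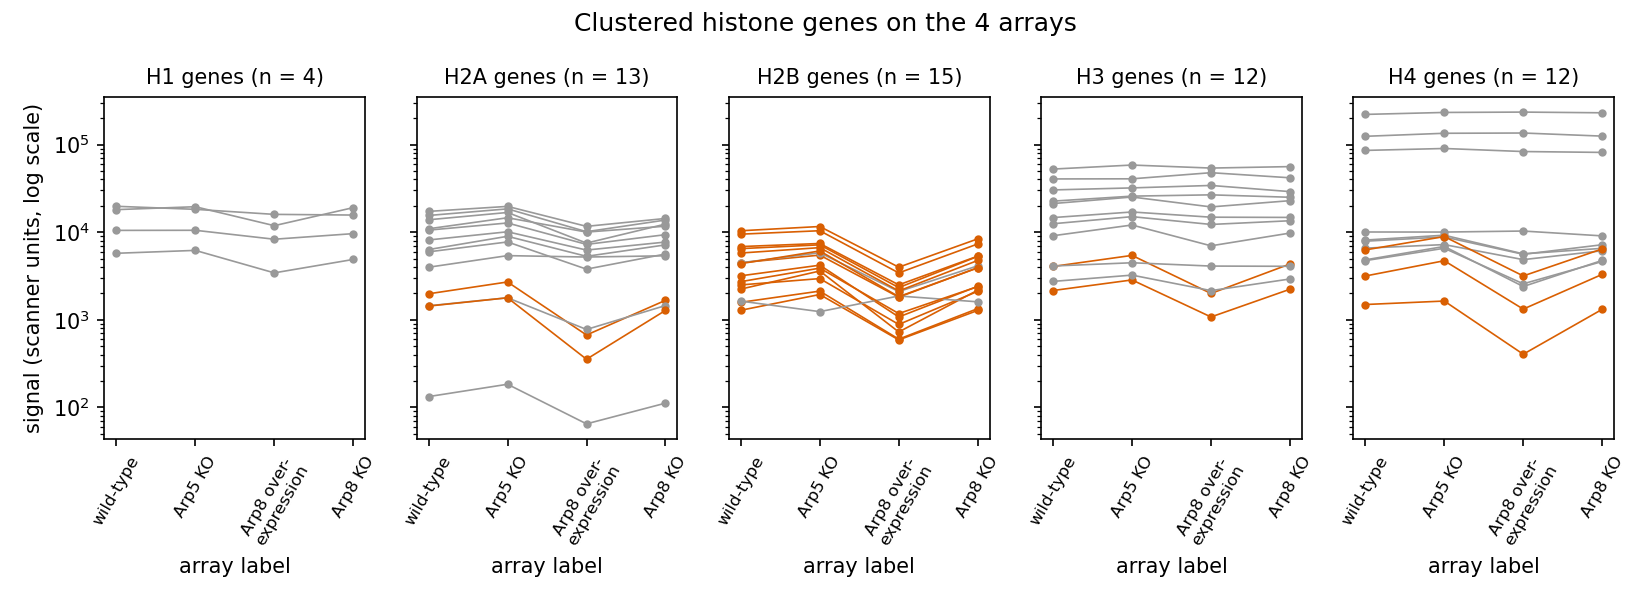
Signal in scanner units (log axis) of clustered histone genes on the 4 arrays, by histone class, with each line joining the values of 1 gene, in orange where the gene is higher beyond 2-fold on the labelled KO array than on the labelled overexpression array. The labelled Arp8 overexpression array has the lowest value for most H2B genes, while the brightest H3 and H4 genes are level across arrays.

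Because 13 of the 15 H2B genes were higher beyond 2-fold, the histone promoters were read. Promoters of 58 of the 63 histone genes were found in the RefSeq table of assembly GRCh38.p14, which holds 27305 promoters, and the 250 bases before each start site were searched on both strands. The octamer ATTTGCAT, the sequence recognized by OCT1 and long known from H2B promoters, occurs in 454 (1.66%) of all promoters. Among histone genes it occurs in 24 of 58, of which 13 are among the 16 H2B promoters and 10 among the 14 H2A promoters. It is in 1 of 11 H3 promoters and in 0 of 12 H4 and 0 of 5 H1 promoters. *H2AC11* starts near the *H2BC11* promoter on the opposite strand. An octamer between such neighbours may be counted for each, so the H2A and H2B counts may not be independent. Of 19 histone genes higher beyond 2-fold with a promoter in the table, 12 hold the octamer, and of 32 tested histone genes within 2-fold, 11 hold it. H2B genes are frequent both among the higher genes and among the octamer promoters. The octamer was not compared within a class, so these counts do not separate it from class. TATAAA, the core of the TATA box, occurs in 3040 (11.1%) of all promoters and in 39 of the 58 histone promoters. Shown are *H2BC11* at chr6:27132796-27133045 on the minus strand and *H2AC16* at chr6:27865067-27865316 on the plus strand, as the H2B and the H2A gene with the largest ratio. *H2BC12* at chr6:27146859-27147108 on the minus strand is shown as the 1 H2B gene below 0. Each is printed 5′ to 3′ on the strand of the gene, with the octamer on either strand in capitals.
H2BC11: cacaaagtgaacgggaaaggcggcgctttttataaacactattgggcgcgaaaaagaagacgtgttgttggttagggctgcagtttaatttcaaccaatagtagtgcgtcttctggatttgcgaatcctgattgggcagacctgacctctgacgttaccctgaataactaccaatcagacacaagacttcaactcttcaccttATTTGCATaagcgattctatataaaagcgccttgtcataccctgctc
H2AC16: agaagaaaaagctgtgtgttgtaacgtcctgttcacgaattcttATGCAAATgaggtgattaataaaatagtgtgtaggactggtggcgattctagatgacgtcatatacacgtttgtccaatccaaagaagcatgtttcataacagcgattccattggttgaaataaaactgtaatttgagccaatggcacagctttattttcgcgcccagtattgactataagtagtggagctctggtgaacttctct
H2BC12: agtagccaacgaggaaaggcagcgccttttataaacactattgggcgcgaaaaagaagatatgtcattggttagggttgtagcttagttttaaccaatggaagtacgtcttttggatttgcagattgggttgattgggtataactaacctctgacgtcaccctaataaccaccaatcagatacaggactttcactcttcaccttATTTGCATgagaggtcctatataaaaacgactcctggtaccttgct
The octamer starts at position -47 from the start site in *H2BC11* and at -46 in *H2BC12*, whereas in *H2AC16* it lies on the opposite strand and farther away, at -206. *H2BC12* had 1635 units in wild-type and 1240 in Arp5 KO cells, 1871 on the labelled overexpression array and 1605 on the labelled KO array, a log2 ratio of -0.22. A match is a description of the sequence and does not show binding.

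Immediate early genes are transcribed within minutes of a stimulus without new protein synthesis, and many encode transcription factors. Of 30 such genes, 23 could be tested. Their median log2 ratio was 0.51, with 4 higher and 0 lower beyond 2-fold and 21 above 0. The range was from -0.06 to 2.13. Under normexp the median was 0.33, and 2 of these 4 genes, *EGR1* at 0.90 and *NR4A2* at 0.17, were within 2-fold.

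*JUN*, a subunit of the AP-1 transcription factor, had 885 units in wild-type and 11460 in Arp5 KO cells, 1533 on the labelled overexpression array and 6680 on the labelled KO array. The log2 ratio was 2.13 (4.37-fold). Both arrays labelled KO were above both others. *FOS*, which pairs with JUN in AP-1, had 58.7 units in wild-type and 2237 in Arp5 KO cells, 111 on the labelled overexpression array and 306 on the labelled KO array, a log2 ratio of 1.47. *EGR1*, a zinc finger transcription factor, had 85.2, 4249, 119 and 280 units on the same arrays and a log2 ratio of 1.24. The order of the arrays was the same for all 3 genes, with wild-type cells lowest, then the labelled overexpression array, the labelled KO array and Arp5 KO cells. *NR4A2*, an orphan nuclear receptor, was just beyond 2-fold at 1.03, but at 12.2 and 24.8 units it is in the range where technical error is largest.

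*MYC*, named after its values were seen, encodes a growth-promoting transcription factor and was bright on all arrays. It had 67249 units in wild-type and 69370 in Arp5 KO cells, 36244 on the labelled overexpression array and 71946 on the labelled KO array. Here the labelled overexpression array alone was low, and the log2 ratio of 0.99 was just inside the threshold.

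The *JUN* promoter is shown as that of the protein-coding gene with the largest ratio among the 12 higher genes named. The letters TGACATCA, a variant of the AP-1 and ATF site known from this promoter, were searched on both strands and occur in 669 (2.45%) of 27305 promoters. Among 22 immediate early promoters in the table they are in 3, those of *ATF3*, *JUN* and *KLF6*. *ATF3* and *KLF6*, both transcription factor genes named after their values were seen, had log2 ratios of 0.63 and -0.06. The *JUN* promoter is at chr1:58784048-58784297 on the minus strand of GRCh38.p14, from RefSeq, with TGACATCA in capitals.
JUN: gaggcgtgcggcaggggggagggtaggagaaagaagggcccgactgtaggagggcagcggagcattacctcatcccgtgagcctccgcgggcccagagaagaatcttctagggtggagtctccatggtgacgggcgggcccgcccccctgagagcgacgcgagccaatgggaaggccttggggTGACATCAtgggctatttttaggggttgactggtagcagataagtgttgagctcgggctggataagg
The capitals begin at position -67. No binding was measured.

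Dual-specificity phosphatases and Sprouty proteins restrain MAP kinase signaling. All 13 genes of this list were tested, with a median log2 ratio of 0.18 and 1 gene beyond 2-fold. *SPRY1*, which encodes an inhibitor of receptor tyrosine kinase signaling, had 629 units in wild-type and 630 in Arp5 KO cells, 278 on the labelled overexpression array and 674 on the labelled KO array, a log2 ratio of 1.28. The labelled overexpression array was low and the other arrays were level. *DUSP6*, the phosphatase of ERK, chosen after its values were seen, was on the other side at -0.68.

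SOCS proteins and CIS are induced by STAT5 and shut off cytokine receptors in turn. Of the 20 genes in the JAK-STAT5 and SOCS list, 3 were higher and 0 lower beyond 2-fold, while the median was 0.04 and 10 genes lay on each side of 0. *SOCS2* had 3977 units in wild-type and 11112 in Arp5 KO cells, 4372 on the labelled overexpression array and 13705 on the labelled KO array, a log2 ratio of 1.65 (3.15-fold). Its other probe gave 1.63. Both arrays labelled KO were again above both others. *CISH*, the gene for CIS, had 588, 1072, 647 and 1401 units in the same order of arrays, with log2 ratios of 1.12 and, on the other probe, 0.83. *OSM*, the gene for the cytokine oncostatin M, had 335, 398, 212 and 470 units and a log2 ratio of 1.15. The receptor, kinase and STAT genes of the list were within 2-fold, with *JAK2* at 0.35 and *IL7R* at -0.21, both chosen after their values were seen. The *CISH* promoter is printed since it carries the letters bound by STAT5, TTCNNNGAA, which were searched on both strands. These letters occur in 1850 (6.78%) of 27305 promoters and in 1 of 15 promoters of this list, a share close to that over all promoters. The *CISH* promoter is at chr3:50611775-50612024 on the minus strand of GRCh38.p14, from RefSeq, with its 4 matches in capitals.
CISH: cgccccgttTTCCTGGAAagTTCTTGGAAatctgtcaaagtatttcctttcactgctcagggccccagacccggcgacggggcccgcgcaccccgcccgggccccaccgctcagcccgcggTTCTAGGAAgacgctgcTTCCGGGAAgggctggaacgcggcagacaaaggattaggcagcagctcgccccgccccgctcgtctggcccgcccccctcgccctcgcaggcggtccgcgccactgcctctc
As above, these matches describe the sequence only.

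**Figure D4:**
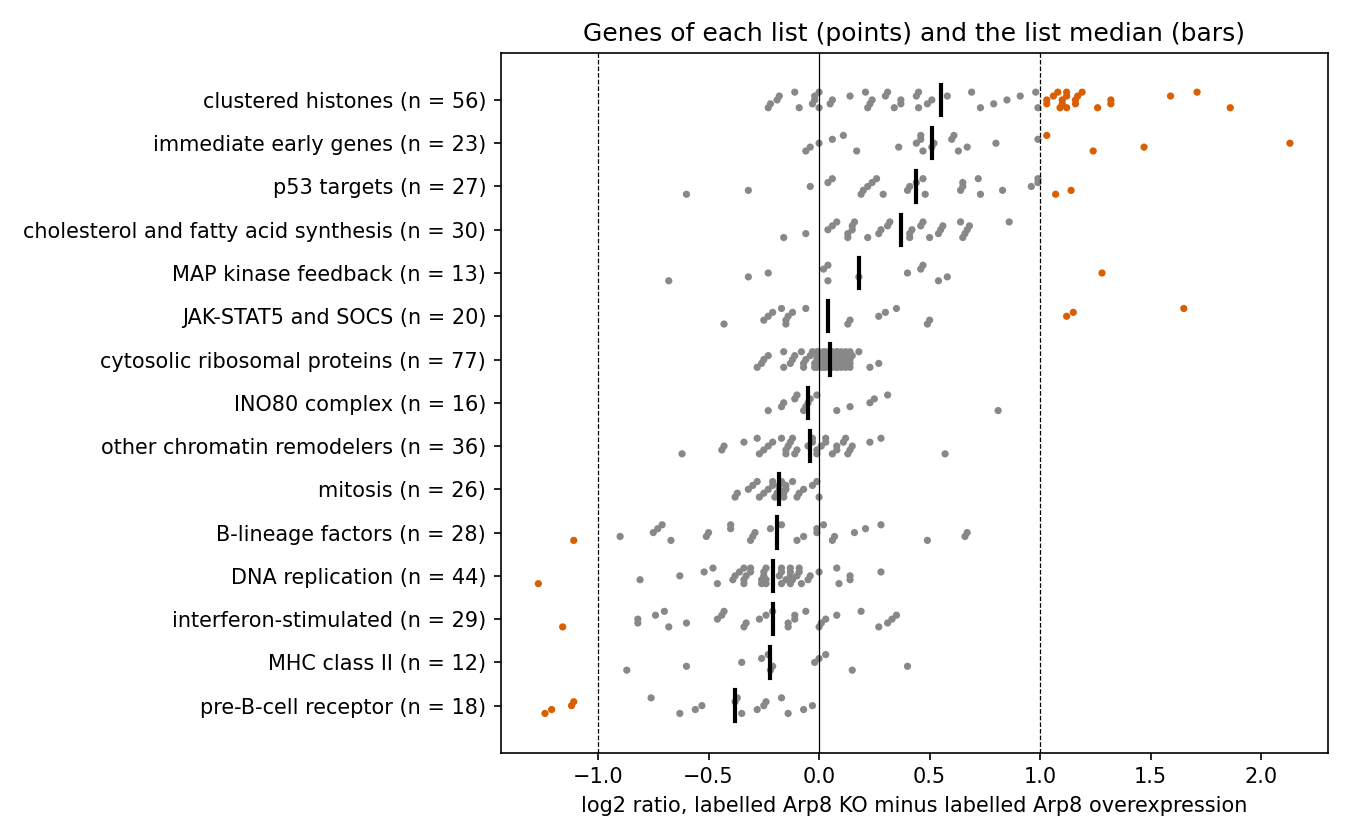
Log2 ratio (labelled Arp8 KO minus labelled Arp8 overexpression) of the tested genes of 15 lists, with 1 point per gene, bars at the list medians and dashed lines at 2-fold. Colored points are beyond 2-fold; the medians run from 0.55 for clustered histone genes to -0.38 for pre-B-cell receptor genes.

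Targets of p53 include arrest, repair and death genes. All 27 were tested, with a median log2 ratio of 0.44. Of these 24 were above 0, 2 were higher and 0 lower beyond 2-fold, and the range was from -0.60 to 1.14. *SESN1*, whose product restrains mTOR signaling, had 893 units in wild-type and 793 in Arp5 KO cells, 1094 on the labelled overexpression array and 2394 on the labelled KO array. The log2 ratio was 1.14 and the other probe gave 1.04. *PHLDA3*, for an inhibitor of AKT, had 918, 784, 1576 and 3302 units in the same order and a log2 ratio of 1.07. *CDKN1A*, which encodes the cell-cycle inhibitor p21 and was named after its values were seen, had 12254, 9788, 14443 and 28545 units and a log2 ratio of 0.99. In these genes the labelled KO array was the highest and Arp5 KO cells the lowest, unlike the order seen for *JUN*. Wild-type signal was nearer to the labelled overexpression array for 24 of the 26 target genes well above background on the 3 arrays, and was below both labelled Arp8 arrays for 19. No such count was made over all genes.

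Genes of cholesterol and fatty acid synthesis are driven together by SREBP transcription factors when sterols are low. Of 31 genes 30 were tested, with a median log2 ratio of 0.37. None was beyond 2-fold, but 28 were above 0, over a range from -0.16 to 0.86. The differences are small for each gene and lie mostly on the same side. Hypoxia genes, which include those for glucose use and angiogenesis, had a median of 0.19 over 17 genes and none beyond 2-fold.

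The 12 genes with the largest negative ratios, chosen in the same way, have varied roles. *IL3RA*, the ligand-binding chain of an interleukin receptor, had 487 units in wild-type and 268 in Arp5 KO cells, 1133 on the labelled overexpression array and 236 on the labelled KO array. The log2 ratio was -2.26 (4.78-fold), and the other probe gave -2.06. *P2RY14*, a receptor for nucleotide sugars, had 26.1, 8.36, 303 and 55.6 units on the same arrays and the most negative ratio of the 12, -2.44, which was -1.62 under normexp and then smaller in size than that of *IL3RA*, at -1.99. *JCHAIN*, which joins the units of polymeric immunoglobulins, had 134, 43.1, 1095 and 273 units and was 4.0-fold lower. In *P2RY14* and *JCHAIN* the labelled KO array was itself above wild-type cells, and the labelled overexpression array was higher still.

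*PLD4*, for an exonuclease of endosomes, had 1503 units in wild-type and 560 in Arp5 KO cells, 2566 on the labelled overexpression array and 785 on the labelled KO array. The log2 ratio was -1.70, with -1.66 on the other probe. *SPTLC3*, for a subunit of the enzyme that starts sphingolipid synthesis, had 184, 90.5, 425 and 96.0 units, and its probes gave -2.14 and -1.76. Both genes were lower on both arrays labelled KO than on both others. *MGLL*, for the lipase that degrades monoacylglycerols, had 433, 379, 1430 and 327 units and a log2 ratio of -2.12. *CREB5*, a transcription factor gene of the CREB family, had 242, 201, 613 and 149 units, with -2.03 and -1.91 on its probes. The labelled overexpression array was the high one for both genes.

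The other genes of this group were *CDH4* for a cadherin, *TSPAN8* for a tetraspanin, *CYTH4* for an activator of ARF GTPases and *DMKN* for a secreted skin protein. Their log2 ratios were -2.39, -2.02, -1.95 and -1.74, and that of *CDH4* was -1.62 under normexp. *CDH4* had 24.7 units in wild-type and 19.1 in Arp5 KO cells, 264 on the labelled overexpression array and 50.1 on the labelled KO array. *TSPAN8* had 185, 129, 1025 and 252 units, and *CYTH4* had 143, 140, 427 and 110. On all 3 of these probes the labelled overexpression array exceeded every other array. *DMKN* differed, with 292 units in wild-type and 183 in Arp5 KO cells, 309 on the labelled overexpression array and 91.9 on the labelled KO array, so that the labelled KO array was the low one. *BTBD6*, for a protein thought to recruit substrates to a ubiquitin ligase, had 8796 units in wild-type and 8954 in Arp5 KO cells, 1868 on the labelled overexpression array and 551 on the labelled KO array. Like *DDIT4L*, it was far from the wild-type and Arp5 KO values on both labelled Arp8 arrays, but with a negative log2 ratio of -1.76.

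The pre-B-cell receptor consists of an immunoglobulin heavy chain, a surrogate light chain and the CD79 signaling pair, and it acts through SRC-family kinases, SYK and BTK. Of 20 genes on this list 18 were tested. All 18 were below 0, the median log2 ratio was -0.38, and 4 were lower beyond 2-fold. *VPREB3*, related to the surrogate light chain, had 10010 units in wild-type and 5641 in Arp5 KO cells, 10447 on the labelled overexpression array and 4411 on the labelled KO array, a log2 ratio of -1.24. *BLK*, for a SRC-family kinase, had 5932, 4348, 8486 and 3652 units and a log2 ratio of -1.21. *CD22*, for an inhibitory co-receptor, had 1821, 1074, 1173 and 537 units and a log2 ratio of -1.12. *FCRLA*, for an intracellular Fc receptor-like protein of B cells, had 9316, 6395, 16657 and 7672 units, with -1.11 and -1.18 on its probes. The labelled KO array was the lowest of the arrays for *VPREB3*, *BLK* and *CD22*, and Arp5 KO cells were the lowest for *FCRLA*. Over the 18 genes, however, wild-type signal was nearer to the labelled KO array for 12 and nearer to the labelled overexpression array for 6. It was below both labelled Arp8 arrays for 7 and above both for 3, again without a count over all genes. The least changed member was *IGLL1*, for the other part of the surrogate light chain, at -0.03, also named after its values were seen.

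Transcription factors of the B lineage were more evenly spread, with a median of -0.19 over 28 genes, 0 higher and 1 lower beyond 2-fold. *BCL6*, for a repressor that acts in pre-B cells and germinal centers, had 4822 units in wild-type and 1794 in Arp5 KO cells, 2246 on the labelled overexpression array and 1037 on the labelled KO array, a log2 ratio of -1.11. Every other array was below wild-type cells. The lineage factors *PAX5* and *EBF1*, chosen after their values were seen, were near 0, at -0.01 and 0.07. Genes of V(D)J recombination, all 13 tested, had none beyond 2-fold. Of the 23 tested adhesion and homing genes 1 was lower beyond 2-fold, *CD38*, which encodes a surface enzyme that consumes NAD. It had 2201 units in wild-type and 1924 in Arp5 KO cells, 3192 on the labelled overexpression array and 1569 on the labelled KO array, a log2 ratio of -1.02 that is close to the threshold.

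The labelled cell type was compared with marker genes. Of 12 pre-B markers 11 were tested, with a median of -0.03 and 1 beyond 2-fold, *CD22*. The marker with the brightest probe, *IGLL1*, had 140425 units on the labelled overexpression array and 136612 on the labelled KO array. Of 10 T-cell markers 6 were tested, with a median of -0.25, and *CD3D* and *CD3G* were not well above background on either array, while the brightest probe, that of *CD4*, had 6575 units on the labelled overexpression array and 4516 on the labelled KO array. Of 11 myeloid markers 6 were tested, with a median of 0.10, and *MPO* and *ELANE* were not well above background. The brightest myeloid probe was that of *CD33*, with 1703 units on the labelled overexpression array and 2792 on the labelled KO array. Of 8 erythroid markers 3 were tested and of 7 fibroblast markers 2, with medians of 0.07 and 0.31. The fibroblast marker *PDGFRA* had 16371 and 23467 units on the labelled overexpression and labelled KO arrays, and the erythroid marker *HBA1* had 83.6 and 87.6. No ratio of the markers of other cell types passed 2-fold, but those of *S100A8* and *AHSP*, myeloid and erythroid markers that were well above background on the labelled overexpression array and not on the labelled KO array, are minimum ratios of at least 1.70-fold and 1.66-fold, and their true size is unknown. The part of such signals in the results was not tested.

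DNA replication genes, all 44 tested, had a median log2 ratio of -0.21, with 38 below 0 and 1 beyond 2-fold. *MCM2*, for a subunit of the replicative helicase, had 51402 units in wild-type and 13309 in Arp5 KO cells, 48591 on the labelled overexpression array and 20075 on the labelled KO array, a log2 ratio of -1.27. Both arrays labelled KO were below both others. The other subunits of the helicase ring, *MCM3* to *MCM7*, named after their values were seen, were lower too but within 2-fold, between -0.38 and -0.08. Of 26 mitosis genes tested, 25 were below 0, yet the lowest was only -0.38 and the median -0.18. The G1 control list, 23 genes that include *MYC* and *CDKN1A*, had a median of -0.12, with 8 above 0, a range from -0.53 to 0.99 and none beyond 2-fold. The medians of the replication and mitosis lists lay on the other side of 0 from that of the clustered histone genes.

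Interferon-stimulated genes, which serve antiviral defense, had a median of -0.21 over 29 genes, with 0 higher and 1 lower beyond 2-fold. *MX1*, for an antiviral GTPase, had 2265 units in wild-type and 1142 in Arp5 KO cells, 2414 on the labelled overexpression array and 1079 on the labelled KO array. The log2 ratio was -1.16, and both arrays labelled KO were lower than both others. The list did not move as a whole, since 9 genes were above 0. MHC class II genes had a median of -0.22 over 12 genes and none beyond 2-fold.

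Some probes were well above background on only 1 of the labelled Arp8 arrays, and for these only a minimum ratio can be given. Each minimum is set by the lowest signal well above background, and other processing gives other sizes. *EPB41L4A*, for a protein that links membrane to cytoskeleton, had 1193 units on the labelled overexpression array, against 2.54 on the labelled KO array, 2.13 in wild-type cells and 2.06 in Arp5 KO cells. It was at least 126-fold lower on the labelled KO array, the largest difference among the named genes, and it was not well above background on any array but that labelled overexpression. Under normexp its log2 ratio was -4.13. *NFE2*, for a transcription factor of the erythroid and platelet lineages, was at least 11.1-fold lower on the labelled KO array, at 4.76 units, and had 1.74 and 2.35 units in wild-type and Arp5 KO cells. It too was well above background on the labelled overexpression array alone. *TNFRSF13B*, for a receptor of the survival factor BAFF, had 72.4 units on the labelled overexpression array and 5.99 on the labelled KO array, at least 7.64-fold lower, with 12.3 units in wild-type and 2.88 in Arp5 KO cells.

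In the other direction *CYP2F1*, for a cytochrome P450, had 186 units on the labelled KO array and 5.70 on the labelled overexpression array, a log2 ratio of at least 4.39. It had 2.49 units in wild-type and 4.27 in Arp5 KO cells. Its other probe, at 9.06 and 10.4 units on the labelled overexpression and labelled KO arrays, gave a log2 ratio of 0.20 and did not show this difference. *ADRA2B*, for an adrenergic receptor, had 63.6 units on the labelled KO array and 1.92 on the labelled overexpression array, at least 7.19-fold higher, with 10.8 units in wild-type and 1.80 in Arp5 KO cells. Under normexp the log2 ratios were 1.69 for *CYP2F1* and 0.96 for *ADRA2B*, the latter within 2-fold, and in the other direction -1.39 for *NFE2* and -1.18 for *TNFRSF13B*. Each of these ratios rests on 1 probe.

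Most genes of the INO80 complex itself differed little. All 16 of its genes were tested, with a median log2 ratio of -0.05 and none beyond 2-fold. The ATPase gene *INO80* had the largest difference, at 8070 units on the labelled overexpression array and 14102 on the labelled KO array, against 6900 in wild-type and 12004 in Arp5 KO cells. The log2 ratio of *INO80* was 0.81, with 0.74 on the other probe, above the 95th percentile of 0.51 over all genes. On each probe both arrays labelled KO were above both others. The remaining subunits were between -0.23 and 0.31. The other chromatin remodelers were also close to equal, with a median of -0.04 over 36 genes, a range from -0.62 to 0.57 and none beyond 2-fold. In the actin family 17 genes were tested, with a median of -0.10. *ACTA2*, for smooth muscle actin, was the 1 gene beyond 2-fold, with 430 units in wild-type and 326 in Arp5 KO cells, 592 on the labelled overexpression array and 1240 on the labelled KO array and a log2 ratio of 1.07, which was 0.98 and within 2-fold under normexp.

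Genes of the antioxidant response were examined because the study concerns *HMOX1*, which encodes heme oxygenase 1. *HMOX1* had 99.6 units in wild-type and 37.9 in Arp5 KO cells, 118 on the labelled overexpression array and 58.6 on the labelled KO array. The labelled KO array was 2.0-fold lower, at the threshold, and within 2-fold under normexp with a log2 ratio of -0.59, so that the side of it is uncertain, and both arrays labelled KO were below both others. The 17 tested targets of Nrf2 and Bach1 had a median of 0.03, and *HMOX1* was the 1 counted beyond 2-fold. *GPX3*, for a secreted glutathione peroxidase, was dim, with 49.5 units on the labelled overexpression array and 35.2 on the labelled KO array, and its log2 ratio of -0.49 is less than 2 technical SDs of dim probes. *GSTM3*, for a glutathione transferase, was at 10.7 and 9.64 units and not well above background on the labelled KO array, so that a difference was not detectable. The 19 tested glutathione genes had a median of 0.00 and none beyond 2-fold.

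The remaining lists were close to the background. Cytosolic ribosomal protein genes, all 77 tested, had a median of 0.05 and a range from -0.28 to 0.27. Genes of homologous recombination and the Fanconi pathway had a median of -0.04 over 31 genes, those of the ATF4 and unfolded protein response -0.04 over 26, and glycolysis enzymes -0.01 over 19. Heat shock genes had 0.02 over 18, NF-kappaB genes 0.05 over 18 and BCL2 family genes -0.00 over 19. None of the genes on these 7 lists was beyond 2-fold. Of the 28 lists other than cell type markers, 16 had no gene beyond 2-fold, and 5 had a median further than 0.30 from 0.

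Wild-type signal, which enters no ratio here, shows which labelled Arp8 array lies nearer to it. Of the 273 probes higher on the labelled KO array, 222 were well above background on all 3 arrays. Wild-type cells were nearer to the labelled KO array for 143 of these and nearer to the labelled overexpression array for 79. Of the 271 lower probes 224 could be placed, 119 nearer to the labelled KO array and the others nearer to the labelled overexpression array. In each direction wild-type cells were thus nearer to the labelled KO array for some probes and to the labelled overexpression array for others. Arrays that differ from each other cannot both equal wild-type cells, so these counts do not show where the differences came from. Many probes were displaced on both arrays in the same direction. Among the higher probes wild-type signal was above both for 88 and below both for 39, and among the lower probes it was above both for 35 and below both for 48. The shares over all tested probes were not counted, so these counts have no background beside them.

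The difference between Arp5 KO and wild-type cells shares no array with the comparison and was set beside it. Of 29912 probes tested there, 355 (1.19%) were higher and 339 (1.13%) lower beyond 2-fold in Arp5 KO cells. Among the 28883 probes tested in both ratios, these numbers were 318 (1.1%) and 277 (0.959%). Of the probes higher on the labelled KO array 257 were tested in Arp5 KO cells, and 27 were higher and 6 (2.33%) lower there. Of the probes lower on the labelled KO array 256 were tested, and 33 (12.9%) were lower and 10 (3.91%) higher. Taken the other way, 8.49% of the 318 probes higher in Arp5 KO cells were higher on the labelled KO array, and 11.9% of the 277 lower ones were lower. The shares in the same and in the opposite direction both exceed those over all probes, those in the same direction by more, and most probes of each set were within 2-fold in the other ratio. Probes beyond 2-fold were concentrated among dim probes, and the shares over all probes were not matched for signal. The median Arp5 KO minus wild-type log2 ratio was 0.26 for the higher probes and -0.30 for the lower ones, beside 0.05 for all.

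**Figure D5:**
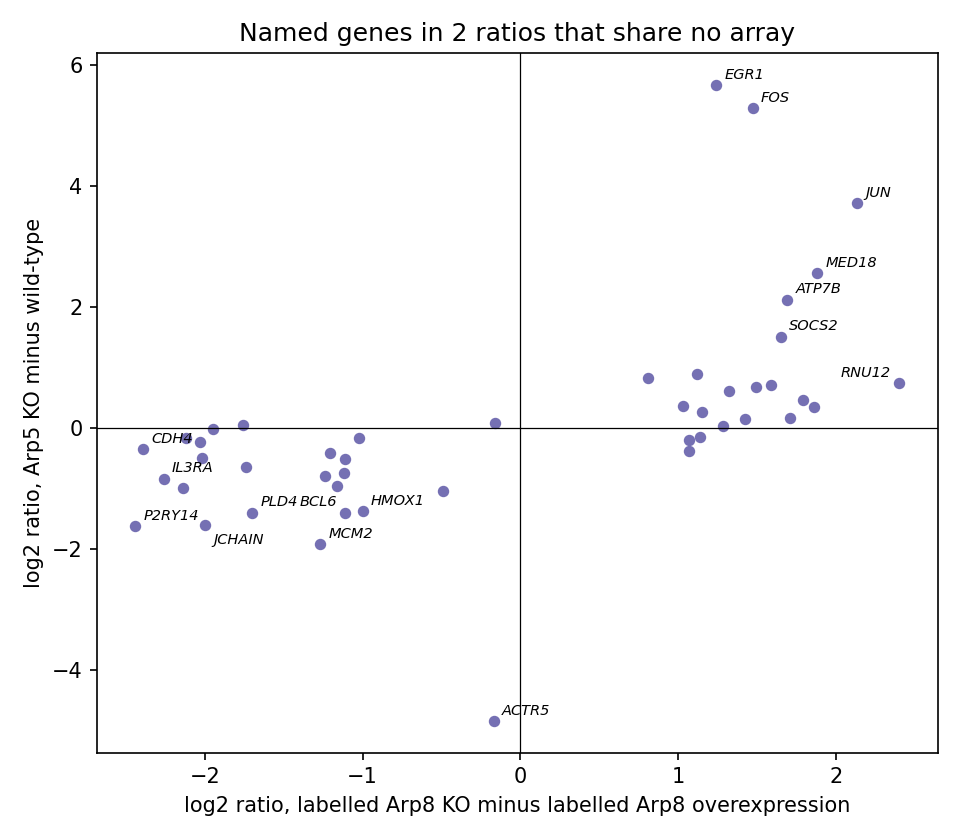
Arp5 KO minus wild-type log2 ratio against the log2 ratio of labelled Arp8 KO to labelled Arp8 overexpression for the named genes, with 1 point per gene. Lines mark 0; *JUN*, *FOS*, *EGR1*, *MED18*, *ATP7B* and *SOCS2* are high in both ratios, while *ACTR5* is low in Arp5 KO cells alone.

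Among the named genes, those with the largest Arp5 KO ratios were *EGR1* at 5.67, *FOS* at 5.28 and *JUN* at 3.72, followed by *MED18* at 2.56, *ATP7B* at 2.12 and *SOCS2* at 1.51. Each exceeded its own ratio between the labelled Arp8 arrays except *SOCS2*, at 1.65 there. On the lower side *MCM2* was at -1.92, *P2RY14* at -1.62, *JCHAIN* at -1.61, and *BCL6* and *PLD4* at -1.40. The histone genes did not share this pattern to the same degree, with *H2BC11* at 0.71, *H4C6* at 0.61, *H2AC16* at 0.34 and *H4C1* at 0.16, nor did the p53 targets *SESN1* and *PHLDA3*, at -0.15 and -0.20.

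Ratios were also compared across chromosomes, signal levels and positions on the array, and the medians were close to 0 in each. Over 23 chromosomes the median log2 ratio of probes well above background on both arrays was between -0.07, for chromosome 22, and 0.03. Over 10 equal groups of probes, from dim to bright, the medians were between -0.03 and 0.05. Over 4 bands of rows and 4 bands of columns of the array they were between 0.00 and 0.01.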

How the data were processed

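Total RNA of Nalm-6 cells was measured on 4 single-color arrays, 1 per genotype, all on the same slide and read in the same scan. The authors deposited the output of Agilent Feature Extraction 10.5.1.1, whose processed signal is a linear intensity. The software had subtracted the background and detrended each array, with no scaling between arrays. The other columns used are the median signals, also a deposited intensity, and marks of 0 or 1 for outlier spots and spots well above background, which per the file headers are of other kind. A deposited table of intensity values equals the processed signal times a factor of 0.8073 on the labelled overexpression array and 0.8247 on the labelled KO array, within 0.01 on the log2 scale for 80.48% and 81.62% of spots. How the factors were set is not stated.

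Control spots and outlier spots (63 on the labelled KO array, 152 on the labelled overexpression array) were left out. The log2 signal was taken relative to the array's 75th percentile and averaged over the spots of a probe. Dim signals that were not well above background were raised to floors of 9.44 units on the labelled KO array and 8.87 on the labelled overexpression array. No significance test was run. The code that makes the ratios and calls was tested on simulated data. Accessions matched 26222 of 41000 probes (64.0%) to genes of GRCh38.p14, which was used for names and promoters only, as the scanner files name another build. Steps used Python 3.11.15, numpy 2.4.6, pandas 2.3.3 and matplotlib 3.10.9.

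Named genes are the 12 in each direction with the largest ratio among 10190 genes whose brightest probe was well above background on both arrays with at least 50 units on the dimmer and whose other probes did not have the opposite sign, up to 5 in each direction detected on 1 array only with at least 50 units, *ACTR8*, *ACTR5*, *INO80*, *HMOX1*, *GPX3* and *GSTM3*, and up to 4 members of each list beyond 2-fold. Other probes of a named gene are given where they were well above background on either array. The members of the comparison and the 33 lists were chosen with earlier results of these data known. Alternatives were other scalings, the authors' table, kept outlier spots, other filters and thresholds, counting by gene, and normexp on the median signal, as the files hold no mean signal, with limma 3.58.1 (R 4.3.3, offset 50).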

Additional observations from a re-analysis of the deposited data

How the results depend on the processing

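With 1 array per genotype, no paired analysis was possible. The counts of 273 higher and 271 lower probes stayed between 230 and 314 higher and 228 and 314 lower under quantile normalization, a percentile over probes well above background, median centring, no scaling, the authors' table, kept outlier spots and a filter on both arrays. They depended on the treatment of dim signals. Without a filter on dim probes 871 were higher and 924 lower, and with the brighter array at 100 units or more 134 and 154. When dim signals were not raised, 364 were higher and 417 lower. Under normexp of the median signal (offset 50, then quantile normalization) there were 70 and 87, and which of these changes lowered the counts was not tested. A lower or higher threshold changes the count by construction, to 1292 higher and 1178 lower at 1.5-fold and to 37 and 59 at 3-fold, as does counting gene symbols, at 101 and 145. No named gene beyond 2-fold changed sign. List medians close to 0 did so under at least 1 setting, for glutathione enzymes, V(D)J recombination, glycolysis, heat shock and the BCL2 family, and those of the INO80 complex under normexp and of pre-B markers under the percentile over probes well above background came to 0.00. *ACTR8*, at -0.16, was at 0.21 on its other probe. Among 364 values of named genes over the scaling, background and outlier settings, the log2 ratio changed by up to 0.04 outside normexp and by up to 2.85 under it. Of 47 named genes beyond 2-fold, 6 came within it under a setting. These were *ACTA2* at 0.98, *ADRA2B* at 0.96, *EGR1* at 0.90, *NR4A2* at 0.17 and *HMOX1* at -0.59 under normexp, and *CD38* at -0.99 under the authors' table and the percentile over probes well above background, where *HMOX1* was at -0.98 and -0.97. Among 231 list medians over the same settings, the largest change was 0.18. Signal over background limits genes with fewer than 50 units, whose ratios have the largest technical error.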
